A study of Mus musculus with 4 samples.

Results

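NS195R is a mouse neural progenitor cell (NPC) line grown from the embryonic stem (ES) cell line 195R, with the strain label 129/Sv. It was taken as the array with that title, 1 of the 4 arrays of the study, and was set against the other NPC lines across all genes of the array. Those were NS21, grown from the ES line 21, and NSEB5-2C, grown from the ES line EB5, both with the strain label 129/Ola. The fourth array, Mixture, carried RNA of Swiss Webster mice, pooled in equal amounts by mass from day 11 embryo and from lung, liver, spleen, thymus, heart and kidney, and is used here only as an outside level. A label of Mixture names a doxycycline-treated NPC line, which goes against its title and its description as a pool. Total RNA, 0.25 ug of each sample, was labelled with Cy3 and hybridised to 1-colour whole-genome arrays. The labels give no treatment for the NPC lines.

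Each line was hybridised once, so no difference between lines has a replicate of the same line behind it. Line, ES cell of origin, strain and the error of a single hybridisation cannot be told apart for NS195R. Any p-value rests on the spread between the other NPC lines, moderated by the spread across genes. It holds no spread of NS195R itself, which is assumed to vary like those lines. In such bulk RNA, fewer cells of a type and less RNA per cell cannot be told apart either. Levels below are log2 processed signals relative to the array's 75th percentile, so that a level of 0 is that percentile and negative levels are dimmer. Of 43379 non-control spots, 23983 to 26840 per array were well above background, the quality flag of the scanner software, and none was saturated. Repeated copies of a probe within an array differed by a median SD of 0.0614 to 0.0728 in log2 units. Precision is limited by the number of arrays.

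Neural progenitor cells grown from ES cells divide in FGF and EGF and resemble radial glia, the elongated stem cells of the embryonic brain that give neurons, then astrocytes and oligodendrocytes. Their identity rests on SOX-family transcription factors and on Notch signalling, in which the ligand Delta on 1 cell holds its neighbour in the progenitor state through Hes genes. Cells of the oligodendrocyte lineage are set apart by the Olig factors, and glial progenitors surround themselves with brain-specific chondroitin sulfate proteoglycans. The neural label of NS195R was checked on filament and surface genes of neural stem cells. All 18 tested genes of that list were well above background in NS195R. Mixture also had all 18, NSEB5-2C had 17 and NS21 had 15, so this count cannot tell a neural line from the pool. By the 2-fold rule given below, 4 of the 18 counted as higher in NS195R, 1 as lower, and 4 lay between the other lines. The median log2 difference of the list was 0.21, and -0.10 when scaled on the array median, so its sign depends on the scaling. The progenitor intermediate filament gene Nes stood at 5.44 on the NS195R array, against 4.02 (NS21) and 3.53 (NSEB5-2C). The stem cell factor gene Sox2 stood at 2.68 in NS195R and 0.87 in NSEB5-2C, and its signal in NS21 was not well above background. No array had signal well above background for the astrocyte filament gene Gfap. The filament gene Vim stood between 6.44 and 6.99 in the lines. Sox2, Gfap and Vim were picked for this check after their values were seen.

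All 5 marker genes chosen for the line, with earlier results of these data known, were high in NS195R and low or not measurable in both other lines. Across the array, 11.5% of tested genes lay at least 2-fold above both. Fabp7, which encodes the radial glial fatty acid binding protein, had a level of 7.19 in NS195R, and signals of -5.80 in NS21 and -5.81 in NSEB5-2C that were not well above background. Its level in Mixture was 2.19, so NS195R lay above the pool and the other lines below it. Bcan, the brain proteoglycan brevican, stood at 6.52 in NS195R, at -5.08 and -7.12 in NS21 and NSEB5-2C, again not well above background, and at -1.73 in Mixture. For genes without such signal in the other lines the fold is a lower bound, the level in NS195R over the dimmest well-measured signal of each other array, as a mean. On that basis Fabp7 was at least 5089-fold and Bcan at least 3197-fold higher. Such bounds depend on the background correction. With normexp, the alternative correction described below, the log2 difference of Bcan was 8.64 rather than 11.64. The median over the 5 markers was then 7.51 rather than 10.85. Olig1, a transcription factor of the oligodendrocyte lineage, stood at 5.73 in NS195R against -6.95 and -7.09, at least 1846-fold higher. Olig2, its neighbour and partner, stood at 4.42 against -6.77 and -7.32 and was not well above background in Mixture either (-5.98). Both probes of Olig2 were higher. S100b, a calcium-binding protein of glia, was measured on every array, at 4.13 in NS195R, -3.04 in NS21, -3.68 in NSEB5-2C and 0.18 in Mixture. It was 179-fold higher than the mean of the other lines (log2 difference 7.49, SE 0.57), with a limma adjusted p of 0.277. NS195R lay above both other lines at all 5, as the choice of these genes fixes.

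The sequence around the transcription start is shown for 3 of these markers and for a pair of genes with the opposite pattern, Krt8 and Plaur, because they stand for the groups farthest apart. The windows run from 250 bases before to 50 after the annotated start (RefSeq, GRCm38.p6), 5′ to 3′ on the gene's strand. Capitals mark a match, on either strand, to the RBPJ core TGGGAA, the SOX core AACAAT, the AP-1 site TGANTCA or the TATA box TATAAA. Fabp7 lies at chr10:57784673-57784972 (+), Olig2 at chr16:91225300-91225599 (+), S100b at chr10:76253586-76253885 (+), Krt8 at chr15:102004293-102004592 (-) and Plaur at chr7:24462233-24462532 (+).
Fabp7: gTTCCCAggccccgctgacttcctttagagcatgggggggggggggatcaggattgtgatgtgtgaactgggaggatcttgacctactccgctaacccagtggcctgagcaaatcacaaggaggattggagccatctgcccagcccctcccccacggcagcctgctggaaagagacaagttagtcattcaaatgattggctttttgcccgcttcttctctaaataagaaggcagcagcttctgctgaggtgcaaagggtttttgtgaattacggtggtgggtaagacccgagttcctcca
Olig2: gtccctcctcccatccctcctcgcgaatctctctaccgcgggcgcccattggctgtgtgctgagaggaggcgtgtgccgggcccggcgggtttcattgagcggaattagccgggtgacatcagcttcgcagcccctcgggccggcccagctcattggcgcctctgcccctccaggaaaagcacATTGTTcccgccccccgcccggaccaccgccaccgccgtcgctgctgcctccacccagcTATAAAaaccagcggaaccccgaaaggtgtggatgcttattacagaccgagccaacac
S100b: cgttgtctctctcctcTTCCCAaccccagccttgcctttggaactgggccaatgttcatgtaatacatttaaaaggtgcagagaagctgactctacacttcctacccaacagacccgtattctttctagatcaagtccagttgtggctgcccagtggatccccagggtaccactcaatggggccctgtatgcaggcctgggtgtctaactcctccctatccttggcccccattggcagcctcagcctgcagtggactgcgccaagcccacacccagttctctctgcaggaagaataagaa
Krt8: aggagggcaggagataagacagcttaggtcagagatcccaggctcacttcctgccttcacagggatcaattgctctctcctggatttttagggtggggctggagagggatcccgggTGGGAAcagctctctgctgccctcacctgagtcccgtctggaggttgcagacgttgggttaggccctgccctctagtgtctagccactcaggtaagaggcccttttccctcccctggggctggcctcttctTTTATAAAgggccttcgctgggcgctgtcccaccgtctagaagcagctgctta
Plaur: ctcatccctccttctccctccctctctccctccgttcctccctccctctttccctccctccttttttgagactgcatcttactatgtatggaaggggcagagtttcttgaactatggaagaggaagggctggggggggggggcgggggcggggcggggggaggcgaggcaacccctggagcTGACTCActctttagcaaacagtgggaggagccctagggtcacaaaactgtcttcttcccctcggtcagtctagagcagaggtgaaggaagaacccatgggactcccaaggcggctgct
Fabp7 and S100b each held 1 RBPJ core, Olig2 held 1 SOX core and 1 TATA box, Krt8 held 1 RBPJ core and 1 stretch that matches the TATA box on both strands, and Plaur held 1 AP-1 site. Such short matches are common. The RBPJ core was present in 23.9% of 1235 promoters of genes higher in NS195R, in 25.4% of 788 promoters of genes lower there and in 23.1% of 11385 promoters of all tested genes. The SOX core was present in 6.07%, 5.08% and 6.07% of the same promoters. The AP-1 site was present in 5.59% of promoters of higher genes and 8.76% of those of lower genes, beside 5.26% of all tested genes and 7.93% of the 27025 promoters of the table. TATA boxes were present in 9.39%, 9.52% and 8.20% of the promoters of higher, lower and all tested genes. The TEAD core GGAATG and the POU octamer ATGCAAAT were also searched and had no match in the windows shown. In the same order, the TEAD core was present in 13.4%, 14.6% and 12.2% of promoters and the POU octamer in 2.19%, 2.28% and 1.57%. No test was made of these shares, and a match is a description of letters and not of a bound site.

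Across the array NS195R stood apart in both directions. A gene was counted as higher when it was well above background in NS195R and at least 2-fold above each of the other lines. It was counted as lower when it was well above background in both other lines and at least 2-fold below each in NS195R. A gene dim in either other line thus could not count as lower, and a gene dim in NS195R could not count as higher. Of 17807 genes and transcripts well above background in at least 1 line, 2044 were higher in NS195R (11.5%) and 1171 were lower (6.58%). By the same rule NS21 had 1447 higher (8.13%) and 803 lower (4.51%), and NSEB5-2C had 1109 higher (6.23%) and 1249 lower (7.01%). Scaled on the array median instead, NS195R had 1592 higher and 1778 lower, since that scaling moved the median difference of genes measured in all lines from -0.09 to -0.40, so the balance of the directions depends on the scaling. With normexp background correction, which adds an offset of 50 and draws dim signals together, the counts were 990 and 640. Against NSEB5-2C alone, without NS21, they were 3449 and 2620, and against NS21 alone 2827 and 2721. No gene passed a limma test of NS195R against the mean of the other lines (adjusted p under 0.05 for 0 genes, smallest 0.277), while an unadjusted p under 0.05 was reached by 1330 genes on the higher side (7.47%) and 604 on the lower side (3.39%). The counts below are therefore counts of size, not of tested changes.

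Of the 2044 higher genes, 944 were at least 4-fold, 254 at least 16-fold and 73 at least 64-fold above both lines. In 762 of them neither other line had signal well above background, and in 902 both had. Of the 1171 lower genes, 494 were at least 4-fold, 104 at least 16-fold and 16 at least 64-fold below both, and 292 were not well above background in NS195R. NS195R also had 1302 genes well above background that neither other line had, against 763 for NS21 and 583 for NSEB5-2C. Further probes were counted if well above background in NS195R for higher genes, and in both other lines for lower genes. Of these, 833 of 851 (97.9%) lay in the same direction for higher genes and 501 of 519 (96.5%) for lower genes. That filter favours the called direction, and the share over all genes was not computed, so these shares are no test of the calls. Levels come from the brightest probe of each gene. Averaged over all probes of a gene, those dim on every array included, the counts were 1875 higher and 1072 lower. Some log2 differences that shrank are given beside their genes, but not all. Others were Pcdh10 (6.90 to 4.02), Postn (4.76 to 1.90), Ptpro (7.94 to 5.20), Klf5 (-3.73 to -1.25) and the marker Olig2 (9.54 to 7.06). The rule has an edge: between a log2 distance of 0.9 and 1.1 from the nearer line, 172 genes lay just inside it on the higher side and 184 just outside.

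**Figure D1:**
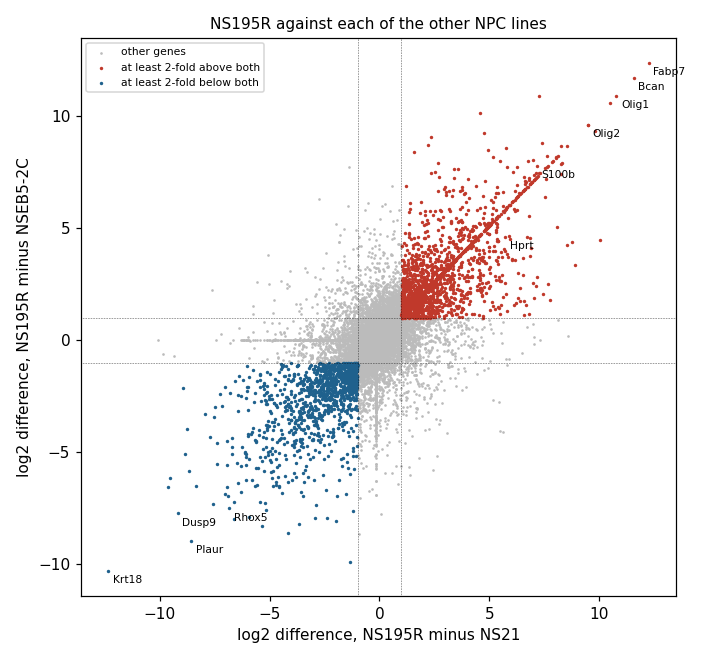
Log2 difference of NS195R to NS21 (horizontal axis) and to NSEB5-2C (vertical axis) for each tested gene, with dim values raised to the dimmest well-measured signal of their array and dotted lines at 2-fold. The 2044 genes above both lines (red) and the 1171 below both (blue) lie in opposite corners, with Fabp7 and Krt18 at the far ends. The straight diagonal runs are genes not well above background in both other lines.

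Over the 13343 genes well above background in all 3 lines, NS195R and NS21 had a Pearson correlation of 0.884 across genes, NS195R and NSEB5-2C also 0.884, and the other 2 lines 0.914 with each other. Genes are not independent replicates, and these lines share slide and scan. NS195R and NS21 lay at least 2-fold apart at 3233 of these genes, NS195R and NSEB5-2C at 3780, and NS21 and NSEB5-2C at 3066. NS195R was thus the line with the lower correlations, though its gap to NS21 was close to that between the other lines. Set beside the pool, 61.8% of the higher genes were also at least 2-fold above Mixture and 15.2% at least 2-fold below it, against 34.4% and 17.9% of all tested genes. Of the lower genes 60.4% were at least 2-fold below Mixture. The NS195R level enters both the call and the comparison with Mixture. That moves these shares in the called direction, so they are no test.

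Genes of radial glia and astrocytes were mostly higher in NS195R. Of 22 genes in that list 20 were tested, and 12 were higher and 2 lower (background 11.5% and 6.58%), with a median log2 difference of 2.66 (1.95 with normexp) beside -0.07 over all tested genes. All 20 were well above background in NS195R, and 14 in each of the other lines. Where a stated marker is a member of this or a later list, its choice fixes its direction. The array shares of 11.5% and 6.58% are also the background of each list count below. Mlc1, a membrane protein of astrocyte end feet, stood at 5.42 in NS195R against -6.88 and -6.30 in NS21 and NSEB5-2C, neither well above background, and -0.40 in Mixture. It was at least 1490-fold higher. Sparcl1, a secreted matrix protein of astrocytes, stood at 6.78 in NS195R, 2.04 in NS21, -2.47 in NSEB5-2C and 4.94 in Mixture, with both probes higher. The glutamate transporter gene Slc1a2 (-0.13) was well above background in NS195R and in neither other line, at least 31.7-fold higher by both probes with signal, and its log2 difference was 1.32 rather than 4.98 as the mean of all probes. The 2 members on the other side were Clu, a secreted chaperone, at -0.17 in NS195R against 3.86 and 2.11, and Gja1, the gap junction protein connexin 43, at -0.34 against 1.30 and 1.34. NS195R therefore did not lie above the other lines for every glial gene.

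Genes of the oligodendrocyte lineage were also mostly higher, with 1 lower member. Of 18 tested genes of 19, 12 were higher and 1 was lower, with a median log2 difference of 3.12 (1.54 with normexp). The higher genes include the stated markers Olig1 and Olig2, whose direction their choice fixes. The list itself was chosen with earlier results of these data known. Beyond Olig1 and Olig2 the higher genes included Bcas1, which marks newly forming oligodendrocytes, at 2.84 in NS195R, -3.93 in NS21 and -7.44, not well above background, in NSEB5-2C. Sox8 (0.59), the homeodomain factor gene Nkx2-2 (0.26), the receptor gene Gpr17 (-0.01) and the myelin glycoprotein gene Omg (-0.17) were well above background in NS195R only among the lines, at least 52.3-, 41.7-, 34.5- and 30.9-fold higher. Nkx2-2, Sox8 and Omg were not well above background in Mixture either. Cspg4, the NG2 proteoglycan of oligodendrocyte precursors, was at least 20.7-fold higher, with a log2 difference of 2.28 rather than 4.37 as the mean of its probes. Pdgfra, their growth factor receptor, and Sox10 also counted as higher, Sox10 with 0.89 rather than 2.98 as the mean of its probes. Mbp, a structural protein of myelin whose gene also gives non-myelin transcripts, stood apart from these. It had 0.88 in NS21, 0.36 in NSEB5-2C and 1.46 in Mixture, and was not well above background in NS195R (-5.52), at least 56.1-fold lower, by 1 of its 2 probes with signal, and the mean of its probes gave a log2 difference of -1.89 rather than -5.81.

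Brain proteoglycans were higher in part, and any stated marker counted among them has a direction fixed by its choice. Of 17 tested genes of 20 in the list of proteoglycans and perineuronal matrix, 8 were higher and 0 lower, and 5 lay between the other lines. The median log2 difference was 1.29, and 0.27 with normexp. Cspg5, neuroglycan C, stood at 3.63 in NS195R, -3.97 in NS21, -4.59 in NSEB5-2C and -2.32 in Mixture, 241-fold above the mean of the other lines. Its distance to the nearer line was the widest among named higher genes measured in all lines. Ncan, neurocan, stood at 5.95 in NS195R and -1.31 in NS21 and was not well above background in NSEB5-2C (-4.96). Vcan, versican, stood at 0.70 against -1.60 and -1.02, with 2 of 3 probes higher. Lum and Dcn, small proteoglycans of connective tissue, were also higher, and both were higher still in Mixture. Chst7, a sulfotransferase that acts on chondroitin, stood at 5.22 in NS195R against -1.56 and -0.33.

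**Figure D2:**
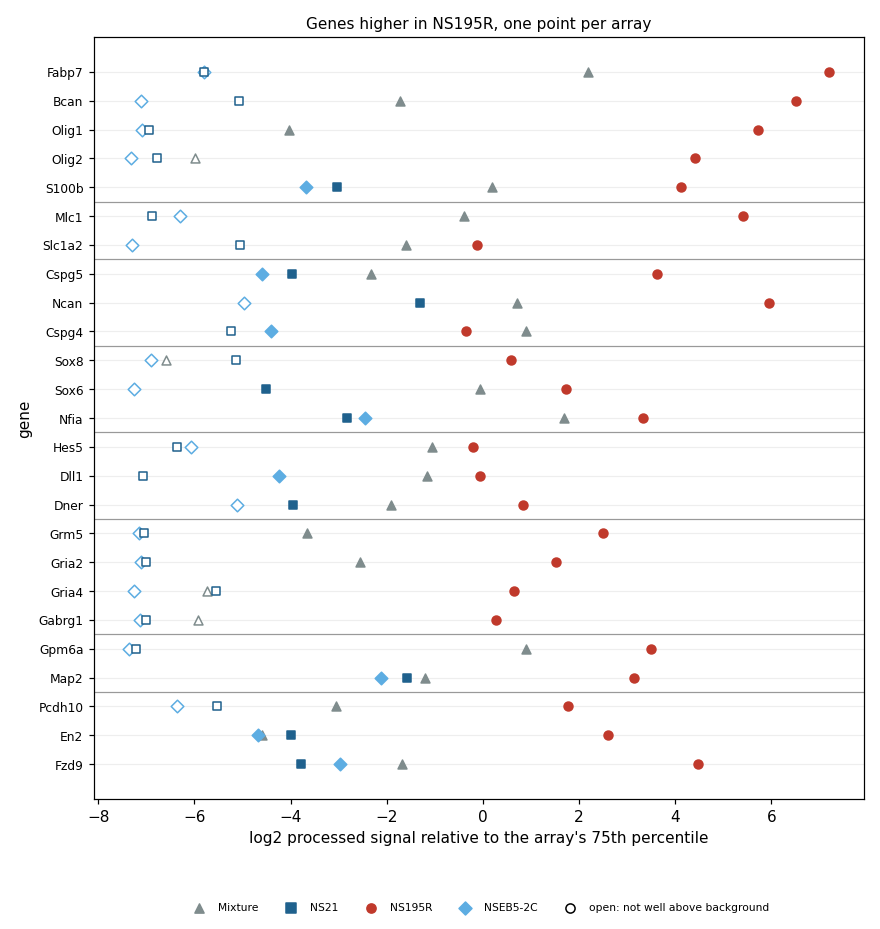
Levels (log2 processed signal relative to the array's 75th percentile) of 25 genes on each array, grouped by horizontal lines into stated markers, astrocyte genes, proteoglycans, transcription factors, Notch genes, glutamate and GABA receptors, neuronal genes, and others. Open symbols are not well above background. NS195R (red) lies to the right of NS21 and NSEB5-2C at every gene shown, while Mixture lies to its right at Cspg4.

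Transcription factors of neural progenitors were often higher in NS195R. Of 48 tested genes of 50, 22 were higher and 2 lower, with a median log2 difference of 1.47 (0.93 with normexp), and those well above background numbered 44 in NS195R, 35 in NSEB5-2C and 32 in NS21. Sox6, a factor of oligodendrocyte precursors and neurons, stood at 1.73 in NS195R, -4.52 in NS21 and -7.26, not well above background, in NSEB5-2C, with all 4 probes with signal higher and a log2 difference of 3.55 rather than 6.58 as the mean of its probes. Nfia, which acts in the switch to gliogenesis, was measured in all lines at 3.33, -2.83 and -2.45 (62.4-fold higher), with 3 of 4 probes higher. Both lay above the highest level of the other lines by more than 16-fold. Sox21 was at least 51.3-fold higher, and the POU factor gene Pou3f2 (-1.10) was well above background in no other array. Rfx4, a radial glial factor that was named for its size alone, stood at 2.80 in NS195R and was not well above background on any other array, at least 242-fold higher. Gli3 (0.99 against 3.61 and 2.25) and Pax3 (-3.90 against -0.91 and -1.71) were lower, though the mean of the Pax3 probes gave -0.57 rather than -2.59.

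Notch genes included higher ligands and targets and a lower mediator. Of 24 tested genes of 26, 11 were higher and 2 lower, with a median log2 difference of 1.07 (0.52 with normexp). Among ligands, Dll1 stood at -0.07 in NS195R, -7.07, not well above background, in NS21 and -4.24 in NSEB5-2C. Dll3, an inhibitory Delta protein, stood at -0.49 against -3.32 and -6.11, the latter not well above background. Dner, a neuronal Notch ligand, stood at 0.83 against -3.95 and -5.12, with both probes higher, and the non-canonical ligand gene Dlk1 was 7.75-fold higher. The target gene Hes5 (-0.21) was well above background in no other line, at least 30.1-fold higher, and Lfng, a glycosyltransferase that modifies Notch, was 6.41-fold higher. On the other side, the ligand gene Jag2 was not well above background in NS195R (-7.36) against -1.04 and -3.46. Rbpj, the DNA-binding mediator of the pathway, stood at -0.58 in NS195R against 0.99 and 1.72, so it was 3.83-fold lower while Dll1 and Hes5 were higher.

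Part of the neurotransmitter receptor genes were higher in NS195R, and none was lower. Of 29 tested genes of 38 in the list of glutamate and GABA receptors, 15 were higher, 0 lower and 4 between the other lines (median log2 difference 1.28, and 0.32 with normexp), and those well above background numbered 24 in NS195R, 15 in NSEB5-2C and 12 in NS21. Grm5, a metabotropic glutamate receptor, stood at 2.50 in NS195R against -7.05 and -7.16, neither well above background, and all 4 probes were higher. The AMPA receptor subunit gene Gria2 (1.52), the NMDA receptor subunit gene Grin3a (1.22), Gria4 (0.64) and the GABA receptor subunit gene Gabrg1 (0.28) were also well above background in NS195R and in neither other line, at least 99.8-, 81.2-, 54.3- and 42.4-fold higher. Gria4 had 4 of 4 probes higher. As means of all their probes the log2 differences were 4.49 for Grm5, 1.56 for Gria2, 2.09 for Grin3a and 1.60 for Gabrg1, rather than 7.62, 6.64, 6.34 and 5.41. Gria4 and Gabrg1 were not well above background in Mixture.

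Genes of neurons were divided. Of 27 tested genes of 30, 11 were higher, 2 lower and 8 between the other lines. The median log2 difference was 1.19, but 0.25 with normexp, 0.44 with the mean of probes and 0.48 without NSEB5-2C. Map2, a microtubule protein of dendrites, stood at 3.15 in NS195R against -1.58 in NS21 and -2.11 in NSEB5-2C (31.9-fold), with 3 of 4 probes higher. Dcx, a marker of migrating neurons, was well above background in NS195R only among the lines, at -1.06, and its call ended with the mean of its probes, which gave a log2 difference of 0.37 rather than 4.06. Tubb3, the neuronal tubulin, stood at -2.03 in NS195R against 1.16 and -0.81, and Stmn2 was not well above background in NS195R (-7.22) against 0.47 and -2.85, with a log2 difference of -0.98 rather than -4.00 as the mean of its probes. Camk2b, a brain kinase, was 86.3-fold higher, and the membrane glycoprotein gene Gpm6a stood at 3.50 and was well above background in neither other line, at least 393-fold higher. How much of the RNA came from neurons or glia was not tested.

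Adhesion and guidance genes gave mixed lists. Of 21 tested cadherins and protocadherins of 33, 10 were higher and 2 lower, with a median log2 difference of 1.07, and of 0.22 with normexp and 0.19 without NS21. Pcdh10 stood at 1.78 in NS195R, the other lines' signals (-5.53 in NS21 and -6.36 in NSEB5-2C) not being well above background, and all 3 probes with signal were higher. Cdh4, R-cadherin, stood at 3.89 in NS195R and 1.53 in NS21 and was not well above background in NSEB5-2C. Cdh1, the epithelial E-cadherin, was the reverse, not well above background in NS195R (-7.26) against -0.27 and -2.74. Of 49 tested axon guidance genes of 52, 13 were higher and 10 lower. The plexin gene Plxnb3 (1.53) was well above background in NS195R only among the lines, and the receptor gene Robo1 stood at 2.21 against -1.17 and -0.71. The Eph receptor gene Epha2 (-0.49 against 3.86 and 4.12), Unc5b (0.87 against 4.45 and 3.90) and Sema3e (not well above background, against 0.86 and -0.12, 3 of 3 probes with signal) were lower. The mean of all Sema3e probes gave a log2 difference of -2.26 rather than -5.56. The list's median log2 difference was 0.00 and turned negative under median scaling (-0.31).

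The clustered protocadherins, a family of neuronal cell-surface molecules encoded side by side, were looked at after chromosome 18, which holds them, showed the highest share of higher genes. On chromosome 18, 88 of 484 tested genes were higher (18.2%), beside 8.60% on chromosome 17, the lowest share. Of 22 beta protocadherin genes on the array, 19 were tested, and 14 were higher and 0 lower, with a median log2 difference of 2.06 (0.89 with normexp). The array shares were 11.5% higher and 6.58% lower. Members well above background in NS195R alone could not count as lower. The family was also picked from the chromosome with the highest share, so the count is no test. The alpha and gamma families had 3 tested genes each, of which 2 alpha genes and 1 gamma gene were higher, and their median log2 differences were 2.75 and -0.02. All 19 were well above background in NS195R and 11 in each other line. Pcdhb10 stood at -0.53 in NS195R, with signals not well above background of -6.10 in NS21 and -7.24 in NSEB5-2C, at least 24.1-fold higher, and Pcdhb20 stood at 0.48 against -1.69 and -2.57, 6.12-fold higher. The members are near-identical copies, so a probe can read more than 1 of them and the genes are not independent.

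**Figure D3:**
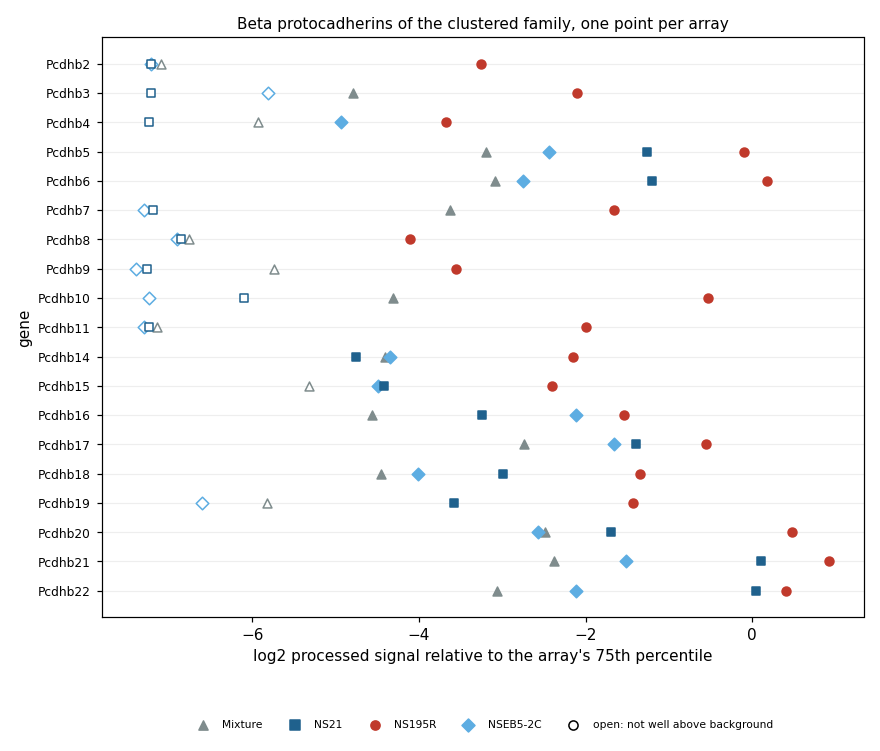
Levels (log2 processed signal relative to the array's 75th percentile) of the 19 tested beta protocadherin genes on each array, with open symbols for signals not well above background. NS195R (red) lies to the right of all other arrays at each gene, and 14 of the 19 are at least 2-fold above both other lines.

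Positional genes were counted by region of the nervous system. Of 14 tested midbrain and hindbrain patterning genes of 24, 6 were higher and 0 lower (median log2 difference 1.57, and 0.78 with normexp). En2, a midbrain and hindbrain homeodomain factor, stood at 2.61 in NS195R, -3.99 in NS21, -4.67 in NSEB5-2C and -4.60 in Mixture, 123-fold higher. Otx2, a factor of forebrain and midbrain, stood at -0.23 in NS195R and -3.68 in NSEB5-2C, and its signal in NS21 was not well above background. En1 was well above background in NS195R only, at -3.66, and at least 2.75-fold higher. Hox genes, which mark hindbrain and spinal levels, were lower in part. Of 35 tested Hox genes of 39, 1 was higher, 8 were lower and 17 lay between. The median log2 difference of -2.06 became 0.00 without NS21 and -3.99 without NSEB5-2C. Of the Hox genes 12 were well above background in NS195R, 20 in NSEB5-2C and 34 in NS21. Hoxa7 stood at -3.33 in NS195R against 2.81 in NS21 and 1.69 in NSEB5-2C, 47.8-fold lower, and Hoxa10, Hoxb7, Hoxa11 and Hoxa9 were not well above background in NS195R and at least 45.7-, 63.3-, 34.7- and 18.6-fold lower. The higher member was Hoxa2, at -2.31 against -3.85 and -3.87. NS21 had 23 Hox genes at least 2-fold above both other lines, and the list's median level was -5.19 in NS195R beside -4.48 in NSEB5-2C and -0.98 in NS21, the first being the level to which dim signals were raised. Forebrain genes gave 2 higher and 1 lower of 15 tested, and spinal genes 1 higher and 3 lower of 14. Beside array shares of 11.5% higher and 6.58% lower, these counts are too small to set either region apart.

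Epithelial genes had the highest share of lower members among the 33 fixed lists. Of 16 tested genes of 19, 0 were higher and 8 lower (median log2 difference -2.87, -1.16 with normexp and -1.72 without NS21), and those well above background numbered 2 in NS195R, 12 in NSEB5-2C and 14 in NS21. Krt18, a keratin of simple epithelia, stood at 7.16 in NS21, 5.08 in NSEB5-2C and 5.20 in Mixture and was not well above background in NS195R (-5.62), at least 2539-fold lower. Its partner Krt8 stood at 4.42, 1.34 and 4.71 and was not well above background in NS195R (-6.08), with both probes lower. Spint1, an inhibitor of epithelial serine proteases, was at least 121-fold lower, the tight junction gene Cldn3 was 28.6-fold lower and the adhesion gene Epcam at least 15.8-fold lower. Lsr, a junction receptor, was 152-fold lower. NS21 had 9 genes of the list above both other lines, and the median level was -5.19 in NS195R beside -3.47 in NSEB5-2C and -0.37 in NS21.

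**Figure D4:**
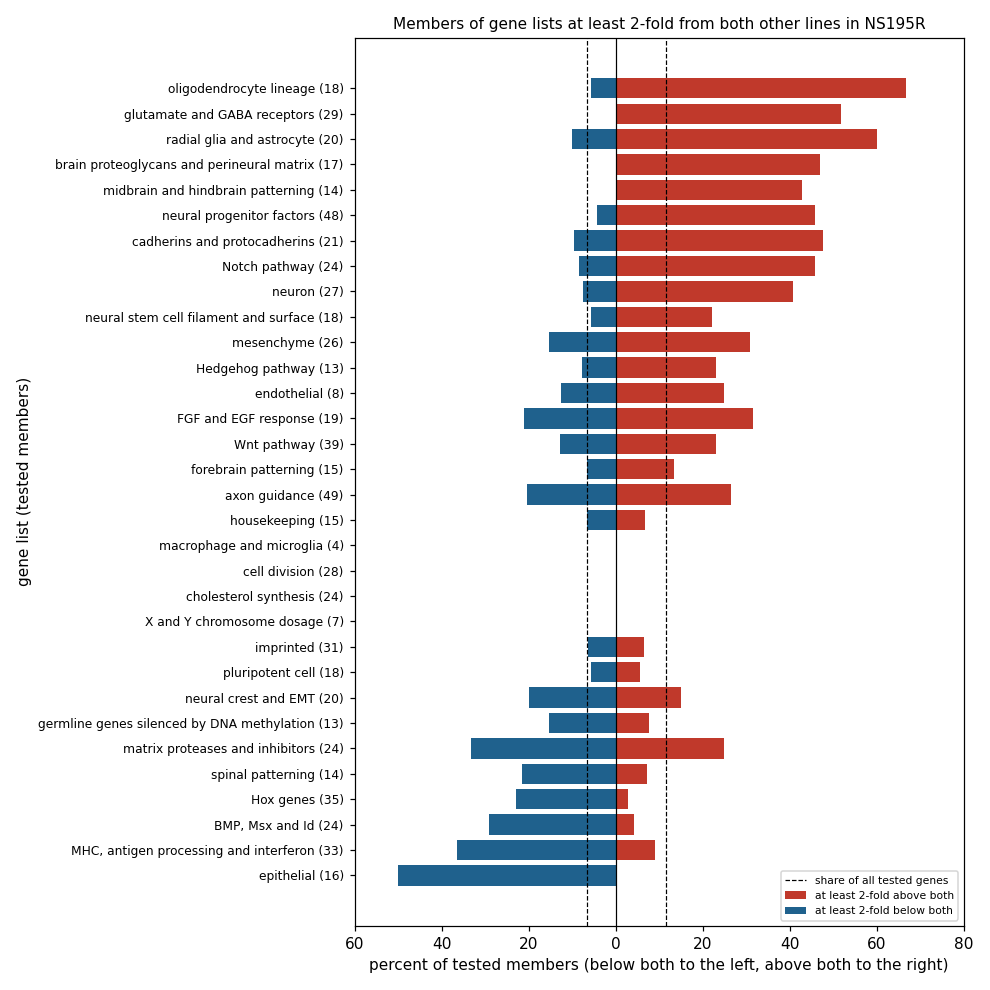
Percent of tested members of each fixed gene list, other than that of the 5 stated markers, at least 2-fold above (red, right) or below (blue, left) both other lines in NS195R, with the number tested in brackets and dashed lines at the shares of all tested genes, 11.5% and 6.58%. Oligodendrocyte, receptor and glial lists reach far to the right, epithelial and interferon lists to the left, and lists of cell division and cholesterol synthesis have no bar.

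Interferon and antigen presentation genes were lower more often than higher. Of 33 tested genes of 35, 3 were higher and 12 lower, with a median log2 difference of -1.11, and of -0.54 with normexp and -0.65 without NSEB5-2C. Ifitm1, an interferon-induced membrane protein, stood at -4.02 in NS195R against 3.35 in NS21 and 1.49 in NSEB5-2C, 87.0-fold lower. The ubiquitin-like gene Isg15 was 13.1-fold lower, Gbp2 was at least 11.4-fold lower, and B2m, the light chain of MHC class I, stood at 2.18 against 3.93 and 4.94, with 3 of 3 probes lower. Named by size alone, the interferon-inducible genes Ifi202b (49.2-fold) and Ifi204 (at least 67.1-fold, 3 of 3 probes) lay on the same side. Members of the Ifi200 family are close copies, and their probes may not separate them. The 3 higher members were Gbp3 (1.04 against -3.50 and -2.11), Tap2 and Ifi27. In NSEB5-2C 11 genes of the list lay above both other lines, against 4 in NS21. Of 13 macrophage and microglia genes on the array 4 were tested, and their median level was -4.14 in NS195R, -3.56 in NSEB5-2C and -3.78 in NS21 beside 2.32 in Mixture.

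Matrix proteases and their inhibitors lay on both sides. Of 24 tested genes, 6 were higher and 8 lower. The median log2 difference was 0.42 and turned to -0.18 without NS21 and to -0.22 without NSEB5-2C. Timp4, an inhibitor of metalloproteinases, stood at 2.00 in NS195R, with signals not well above background of -5.92 in NS21 and -5.54 in NSEB5-2C, while Timp1 stood at 0.62 in NS195R against 4.93 and 6.65, 36.1-fold lower by 3 of 3 probes. Mmp15, a membrane metalloproteinase, was at least 145-fold higher, and Mmp10 and Mmp13 were not well above background in NS195R and at least 114- and 60.5-fold lower. Serpine2, an inhibitor of plasminogen activators and thrombin, stood at 4.52 against 1.55 and -2.35. Plaur, the urokinase receptor whose start region is printed above, stood at 3.73 in NS21 and 4.11 in NSEB5-2C, and its signal in NS195R (-4.83) was not well above background, at least 432-fold lower. Plat, tissue plasminogen activator, was 2.72-fold higher.

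BMP signalling genes were lower more often than higher. Of 24 tested genes of 25, 1 was higher and 7 lower, with a median log2 difference of -1.04, and of -0.34 with normexp and -0.64 without NS21. Msx1, a homeodomain target of BMP, stood at -4.45 in NS195R against 1.54 in NS21 and -0.21 in NSEB5-2C (34.7-fold lower, 1 of 2 probes), and Msx2 was not well above background in NS195R. The inhibitory SMAD genes Smad6 and Smad7, themselves BMP targets, were not well above background in NS195R and at least 23.4- and 18.0-fold lower. The ligand gene Bmp4 stood at -3.07 against 2.20 and -0.91. The receptor gene Bmpr1b (-3.11) was the higher member. NS21 had 11 genes of the list above both other lines.

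Wnt, FGF and Hedgehog genes lay on both sides, beside array shares of 11.5% higher and 6.58% lower. Of 39 tested Wnt genes of 44, 9 were higher and 5 lower. Fzd9, a Wnt receptor, stood at 4.48 in NS195R, -3.79 in NS21, -2.97 in NSEB5-2C and -1.68 in Mixture, 232-fold higher, and the ligand gene Wnt7a (-0.87) was well above background in NS195R only among the lines. The secreted Wnt inhibitor gene Dkk1 stood at 3.17 in NS21 and 1.31 in NSEB5-2C, while its signal in NS195R (-5.32) was not well above background, at least 172-fold lower by both probes. Dkk2 and Fzd6 were also lower. Among 19 tested genes of the FGF and EGF response, 6 were higher and 4 lower. Dusp9, a phosphatase of MAP kinases, was the gene measured in all lines with the widest gap to the nearer line on the lower side. It stood at -3.62 in NS195R against 5.55 in NS21 and 4.10 in NSEB5-2C, 348-fold below their mean, with both probes lower. The ETS factor genes Etv5 (5.23-fold) and Etv1 (4.15-fold) and the inhibitor gene Spry2 (5.06-fold) were higher, and Egfr, the EGF receptor, was 8.20-fold higher by 6 of 6 probes. Of 13 tested Hedgehog genes, 3 were higher, among them Ptch1 at least 3.68-fold, and Gli3 was lower.

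Genes named for size outside the lists showed further contrasts. S100a6, a calcium-binding protein related to S100b, stood at 0.97 in NS195R against 7.60 in NS21 and 8.95 in NSEB5-2C, 158-fold lower, the opposite of S100b. Hmga2, a chromatin protein of embryonic and early progenitor cells, stood at -0.21 against 5.03 and 5.63, with 3 of 3 probes lower. Rhox5, an X-linked homeobox gene, stood at 0.54 against 7.39 and 8.04. The secreted phosphoprotein gene Spp1 (74.9-fold), the integrin gene Itga3 (at least 121-fold, 3 of 3 probes) and the imprinted gene Phlda2 (at least 72.0-fold, both probes) were also lower. Tagln, an actin-binding protein of smooth muscle, was 62.6-fold lower, and Fn1, fibronectin, was 17.6-fold lower by 3 of 3 probes. On the higher side stood the matrix gene Spon1 (at least 291-fold, both probes), the phosphatase gene Ptpro (at least 246-fold, both probes), the non-coding RNA gene Pantr1 (at least 747-fold), Scrg1 (at least 205-fold) and Itga9 (43.5-fold, both probes).

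**Figure D5:**
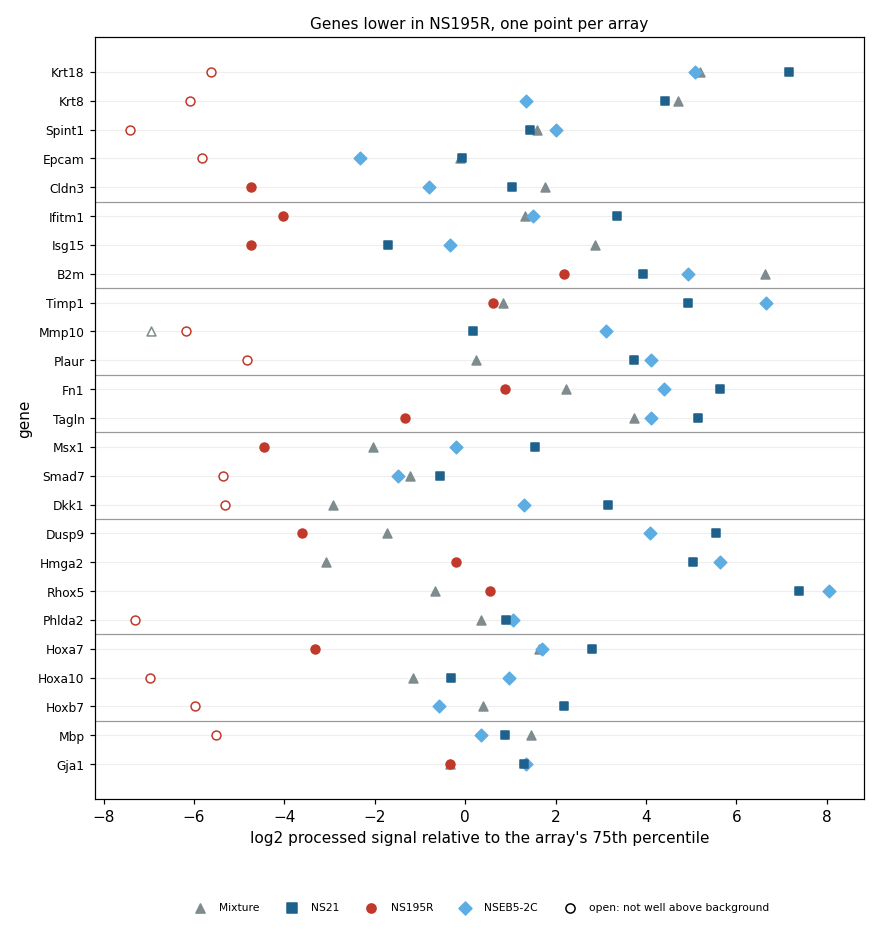
Levels (log2 processed signal relative to the array's 75th percentile) of 25 genes on each array, grouped by horizontal lines into epithelial genes, interferon and antigen presentation genes, proteases and their inhibitors, mesenchymal genes, BMP and Wnt genes, other genes named for size, Hox genes and glial exceptions. Open symbols are not well above background. NS195R (red) lies to the left of NS21 and NSEB5-2C at every gene shown.

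Markers of other cell types were set beside these results, and their part in them was not tested. The array shares for their counts were 11.5% higher and 6.58% lower. Of 26 mesenchymal genes, all tested, 8 were higher and 4 lower, with a median level of 0.89 in NS195R, 0.88 in NSEB5-2C and -0.86 in NS21. Lum and Postn were higher, and Tagln, Fn1, Twist2 and Cnn1 lower. Of 12 endothelial genes 8 were tested, 2 were higher and 1 lower, and their median level was -3.37 in NS195R beside 3.19 in Mixture. Emcn, the endothelial sialomucin, was an exception at 4.02 in NS195R against -3.24 and -3.44, 165-fold higher by its only probe, above its level of 2.84 in Mixture, while Flt1 was 15.6-fold lower. Of 20 skeletal muscle genes, listed after Myh8 was seen, 13 were tested, 4 higher and 3 lower. Myh8, a perinatal muscle myosin, stood at 2.98 in NS195R and 7.24 in Mixture and was not well above background in the other lines, and 1 of its 2 probes with signal was higher (log2 difference 1.53 rather than 8.10 as the mean of its probes). Of 15 adipocyte genes, listed after Thrsp was seen, 10 were tested, 6 higher and 0 lower. The lipid synthesis gene Thrsp stood at 2.59 in NS195R and 2.42 in Mixture, and Gpd1 and Car3 were 38.6- and 41.6-fold higher than the other lines but below Mixture. For muscle and adipocyte lists the median level in NS195R, -3.75 and -1.53, lay below that in Mixture, 5.34 and 3.36.

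Several lists did not set NS195R apart, beside array shares of 11.5% higher and 6.58% lower. None of 24 cholesterol synthesis genes and none of 28 cell division genes was at least 2-fold from both lines in either direction. Their median log2 differences were 0.10 and -0.01, between -0.21 and 0.26 and between -0.45 and 0.33 under the alternatives, so neither had a settled sign. Of 31 tested imprinted genes 2 were higher and 2 lower, and of 18 tested pluripotency genes 1 was higher, Tet1, and 1 lower, Klf5. Of 15 housekeeping genes 1 was higher and 1 lower. The higher was Hprt, the purine salvage enzyme, at 3.33 in NS195R, -2.40 in NS21, -1.29 in NSEB5-2C and 4.03 in Mixture, 36.0-fold higher than the other lines by 1 probe. The lower was B2m. Along the chromosomes the median log2 difference of genes measured in all lines lay between -0.22 on chromosome 15 and 0.09 on chromosome 14.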

How the data were processed

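The 4 Agilent 1-colour arrays shared 1 slide and 1 scan. Per the file headers, the intensity of each spot was background-subtracted with Feature Extraction 9.5.3.1. All 180072 values of the deposited table equalled these linear signals, so it offered no alternative. It held 0 columns of other samples. Here, log2 signals were centred on each array's 75th percentile over non-control spots, spots marked as outliers were left out, copies of a probe were averaged and 19 probes lacking a value on an array were dropped. Each of 27660 genes was read from its probe brightest on average in the NPC lines. RefSeq transcripts (GRCm38.p6) named 22951 of 41174 probes, symbols 6582, synonyms 3077, and 8440 kept the name in the files. No source used here gives the build of probe positions.

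Signals not well above background were raised to the dimmest well-measured signal of their array. NS195R was compared with the mean of the other lines with limma 3.58.1 in R 4.3.3 (two-sided, Benjamini-Hochberg, 1 residual degree of freedom, 1.51 prior), tested on simulated data. Limma used the signals as measured. Named genes were the stated markers, the 15 farthest each way from the nearer line among measured genes and among bounds, and up to 5 members per list with up to 3 on the opposite side. Further names, and the protocadherin families, are said to be later choices or serve as examples. Some genes that the rule names are left out of the text and figures, though list counts include them. The members and the 33 lists were chosen with earlier results of these data known. Promoters from RefSeq matched 1235 of 1649 higher and 788 of 1055 lower genes with symbols. Alternatives covered normexp background correction (offset 50), quantile and median scaling, filters on dim probes, the probe kept, the fold and each line left out.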

Additional observations from a re-analysis of the deposited data

Results flagged for a closer look

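For 22 of the reported genes NS195R lay at least 4-fold on 1 side of Mixture while NS21 and NSEB5-2C both lay at least 4-fold on the other side. This difference between the strain labels was not tested, since NS195R is a single array, and the values are log2 differences of NS195R to the mean of the other lines, with dim signals raised to the dimmest well-measured signal, so that differences of genes dim on 1 side are lower bounds.

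NS195R lay above Mixture and the other lines below it at 18 of these genes. Among glial and matrix genes the differences were 12.31 for Fabp7, 11.64 for Bcan, 10.54 for Mlc1, 9.09 for Ncan, 8.18 for Spon1, 7.68 for Scrg1 and 7.49 for S100b. They were 9.54 for the non-coding RNA gene Pantr1, 7.30 for the transcription factor gene Ebf3 and 5.36 for the Notch ligand gene Dner. For surface and guidance molecules they were 8.62 for Gpm6a, 7.94 for Ptpro, 6.65 for Plxnb3, 6.64 for Gria2 and 4.85 for Ntn1. Mmp15 (7.18), Timp4 (7.12) and Dock10 (7.39), an activator of small GTPases, completed them. Ebf3 was at least 2-fold higher by 1 of its 2 probes with signal, as was Dock10, and the means of their probes gave 4.83 and 2.09.

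The opposite arrangement, with NS195R below Mixture and both other lines above it, was found at 4 genes. The differences were -8.76 for Plaur, -7.42 for Dkk1, -7.30 for S100a6 and -6.40 for the DNA repair gene Alkbh2.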

How the results depend on the processing

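The 2044 higher genes of NS195R numbered 990 after normexp background correction, 902 when only genes well above background in all 3 lines were kept, and 944 at 4-fold. Without either other line they numbered 2827 to 3449, the highest without NS21. The 1171 lower genes numbered 640 after normexp, 1778 under median scaling and 494 at 4-fold, and 2620 to 2721 without either other line. Of the 990 and 640 genes under normexp, 986 and 639 were among the original genes. Quantile scaling gave 1852 and 1361. Limma called 0 genes under each of the scalings, filters, priors and probe choices that were run, and 1934 at an unadjusted p under 0.05. Of 1386 differences of 231 named genes under these alternatives, 1374 kept their sign. The genes were named for lying above or below both other lines in these data. That fixes their sign when either line is left out, so the count is no test of robustness. Medians of 12 of the 33 lists changed sign under at least 1 alternative: forebrain, Hedgehog, Wnt, endothelial, neural stem cell filament, neural crest, imprinted, matrix protease, mesenchyme (-0.19 without NS21), sex chromosome, cholesterol and cell division lists. No paired analysis was possible because each line has 1 array and replicate numbers come only from accession order. Signals near background limit the folds of dim genes, which are lower bounds.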

Other observations

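In a list of X and Y chromosome dosage genes, 2 Y-linked members separated NS21, not NS195R, from the other lines. The Y-linked genes Ddx3y (-0.89) and Eif2s3y (0.48) were well above background in NS195R and in NSEB5-2C (-0.95 and 0.15), and neither was in NS21 (-7.15 and -7.07). Xist, the non-coding RNA of X inactivation, was not well above background in any line and stood at 1.47 in Mixture. Of 7 tested genes of the list, 0 were at least 2-fold from both other lines in NS195R. This holds for the list only. Over all of chromosome X, 90 of 643 tested genes were higher in NS195R (14.0%) and 56 lower (8.71%), beside 11.5% and 6.58% across the array.

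Among 13 tested genes of 26 that DNA methylation silences outside the germline, those well above background numbered 6 in NS195R, 7 in NSEB5-2C and 10 in NS21. Beyond Rhox5, Tex19.1 was not well above background in NS195R (-7.29) against -3.67 in NS21 and 1.66 in NSEB5-2C, and Brdt was well above background in NS195R only, at -3.60. Of 20 neural crest genes 3 were higher and 4 lower in NS195R, beside array shares of 11.5% and 6.58%. The endothelin receptor gene Ednrb stood at 0.76, well above background in no other line, and Twist2 at -3.82 against 0.05 and 1.31.

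Along the chromosomes, the median log2 difference of 40 neighbouring genes measured in all lines reached 0.52 on chromosome 8 and -0.56 on chromosome 3, taken as the value nearer to 0 of the differences to each other line.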
